A study of Mus musculus with 4 samples.

Results

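The genes described here are the nuclear genes of the oxidative phosphorylation complexes. They were chosen by symbol alone, as the genes whose symbol starts with Nduf, 1 of the letters a, b, c, s or v and a number, the genes *Sdha*, *Sdhb*, *Sdhc* and *Sdhd*, the genes starting with Uqcr, the gene *Cyc1*, the genes starting with Cox and a number from 4 to 8, and the genes starting with Atp5. Of the 24347 genes listed in the deposited files, 85 matched, and by these symbols 37 belong to complex I, 4 to complex II, 9 to complex III, 18 to complex IV and 17 to complex V. Their RNA was measured by sequencing in embryoid bodies (EBs), floating clumps of differentiating mouse embryonic stem cells (mESCs), collected after 3 days without LIF. The cells were WT, or carried a CRISPR/Cas9 deletion of the promoter of *Gm11549*, the gene that encodes the micropeptide NEMEP (promoter KO). There were 2 samples of each genotype, named here WT 1, WT 2, promoter KO 1 and promoter KO 2, and the labels give strain 129/Ola and no further treatment for each of the 4.

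The study's methods name the mESC line E14Tg2a.IV and clones grown from single sorted cells, but the labels do not say from which clone a promoter KO sample came. The study describes the samples of a genotype as independent, and nothing in the labels says that they were separate cultures, so the p-values below measure the spread between these samples. Expression was read as FPKM, a fragment count scaled to transcript length and library size. The listed FPKM of WT 1, WT 2, promoter KO 1 and promoter KO 2 added up to 677777, 696928, 673951 and 679870. From the lowest values, with fragments of 200 bases assumed, the depth in the same order was about 24547100, 21627200, 21379600 and 19952600 fragments. Of these totals the members held 3.30%, 3.36%, 3.61% and 3.43%.

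For the targeted gene *Gm11549* the files give 0.750 FPKM (WT 1), 0.522 FPKM (WT 2), 0 FPKM (promoter KO 1) and 0.0659 FPKM (promoter KO 2). The promoter KO samples were thus the 2 lowest, and no sample reached the 1 FPKM needed for a test. The labels call the cells ES-derived mesendoderm, and the mesendoderm markers were present in the WT samples and lower in the promoter KO samples. The 9 mesendoderm markers summed to 790 FPKM in WT 1 and 1024 FPKM in WT 2, with *T* (306 and 448 FPKM) the most abundant, and to 152 and 320 FPKM in promoter KO 1 and 2. Of these 9 genes, 6 (*Mixl1*, *Gsc*, *Mesp1*, *Lhx1*, *Evx1* and *Gata6*) fell at an adjusted p under 0.05 in limma, and none of the 9 was at 0. Some pluripotency markers were also abundant, with *Pou5f1*, a core factor of the pluripotent state, at 1499, 1188, 1522 and 1545 FPKM. Others were low, such as *Klf4* at 1.23, 5.06, 5.02 and 4.69 FPKM. The samples thus held RNA typical of both states. In RNA from whole EBs, fewer cells of a type and less RNA per cell cannot be told apart.

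Oxidative phosphorylation makes ATP in the inner mitochondrial membrane. Complexes I and II take electrons from NADH and succinate, complex III passes them to cytochrome c, complex IV gives them to oxygen, and complex V, the ATP synthase, uses the proton gradient that complexes I, III and IV build. Most subunits are nuclear genes, a few are encoded in mitochondrial DNA, and several complex IV and complex V subunits have isoforms that differ between tissues. The study measured oxygen consumption in EBs of a different mutant, with a frameshift in the coding sequence of NEMEP, and described it as lower than in WT, whereas the RNA data described here come from the promoter KO and hold no measure of respiration.

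Most of these genes had similar RNA levels in promoter KO and WT EBs. Of the 85 members, 82 reached 1 FPKM in at least 2 samples and were tested with limma on log2(FPKM + 1), and the 3 that did not were *Cox6a2*, *Cox8b* and *Cox8c*, tissue-restricted isoforms of complex IV subunits. At a p adjusted over all 11941 tested genes of under 0.05, *Ndufa4l2* fell (1 gene, 1.22% of the tested members) and *Atp5l* rose (1 gene, 1.22%), beside 1.89% of all tested genes that were lower and 1.68% that were higher. Without the adjustment, 10 members (12.2%) were lower and 15 (18.3%) higher at a limma p under 0.05, beside 15.6% and 15.0% of all tested genes. In 23 members (28.0%) the promoter KO samples were the 2 lowest and in 29 (35.4%) the 2 highest, beside 32.4% and 32.9% of all tested genes, and the groups overlapped in the remaining 30. Among the 15 and among the 29 is *Cox7b2*, which passed the filter only through the promoter KO samples and could not have come out lower. The shares of members thus lay near those of all tested genes.

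Over the 82 members the median log2 fold change, promoter KO against WT, was 0.03, with quartiles of −0.14 and 0.16, beside a median of 0.00 and quartiles of −0.22 and 0.20 over all tested genes. The lowest was −1.88 in *Ndufa4l2*, and the highest were 0.51 in *Ndufa5* and in *Atp5g1*, apart from *Cox7b2* (0.87), a testis isoform of a complex IV subunit that passed the filter only through the promoter KO samples. The 95% confidence interval lay within −0.5 and 0.5 in 60 members (73.2%), where 43.5% of all tested genes had an interval that narrow and near 0. Most members were well above the filter of 1 FPKM, and they were not compared with genes of similar FPKM. It reached beyond −1 or 1 in 7 members, *Ndufa4l2*, *Ndufa12*, *Ndufs5*, *Cox4i2*, *Cox7a1*, *Cox7b2* and *Atp5e*. On the log2 scale the members' median deviation from their gene means was −0.05 (WT 1), −0.01 (WT 2), 0.02 (promoter KO 1) and −0.00 (promoter KO 2).

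**Figure D1:**
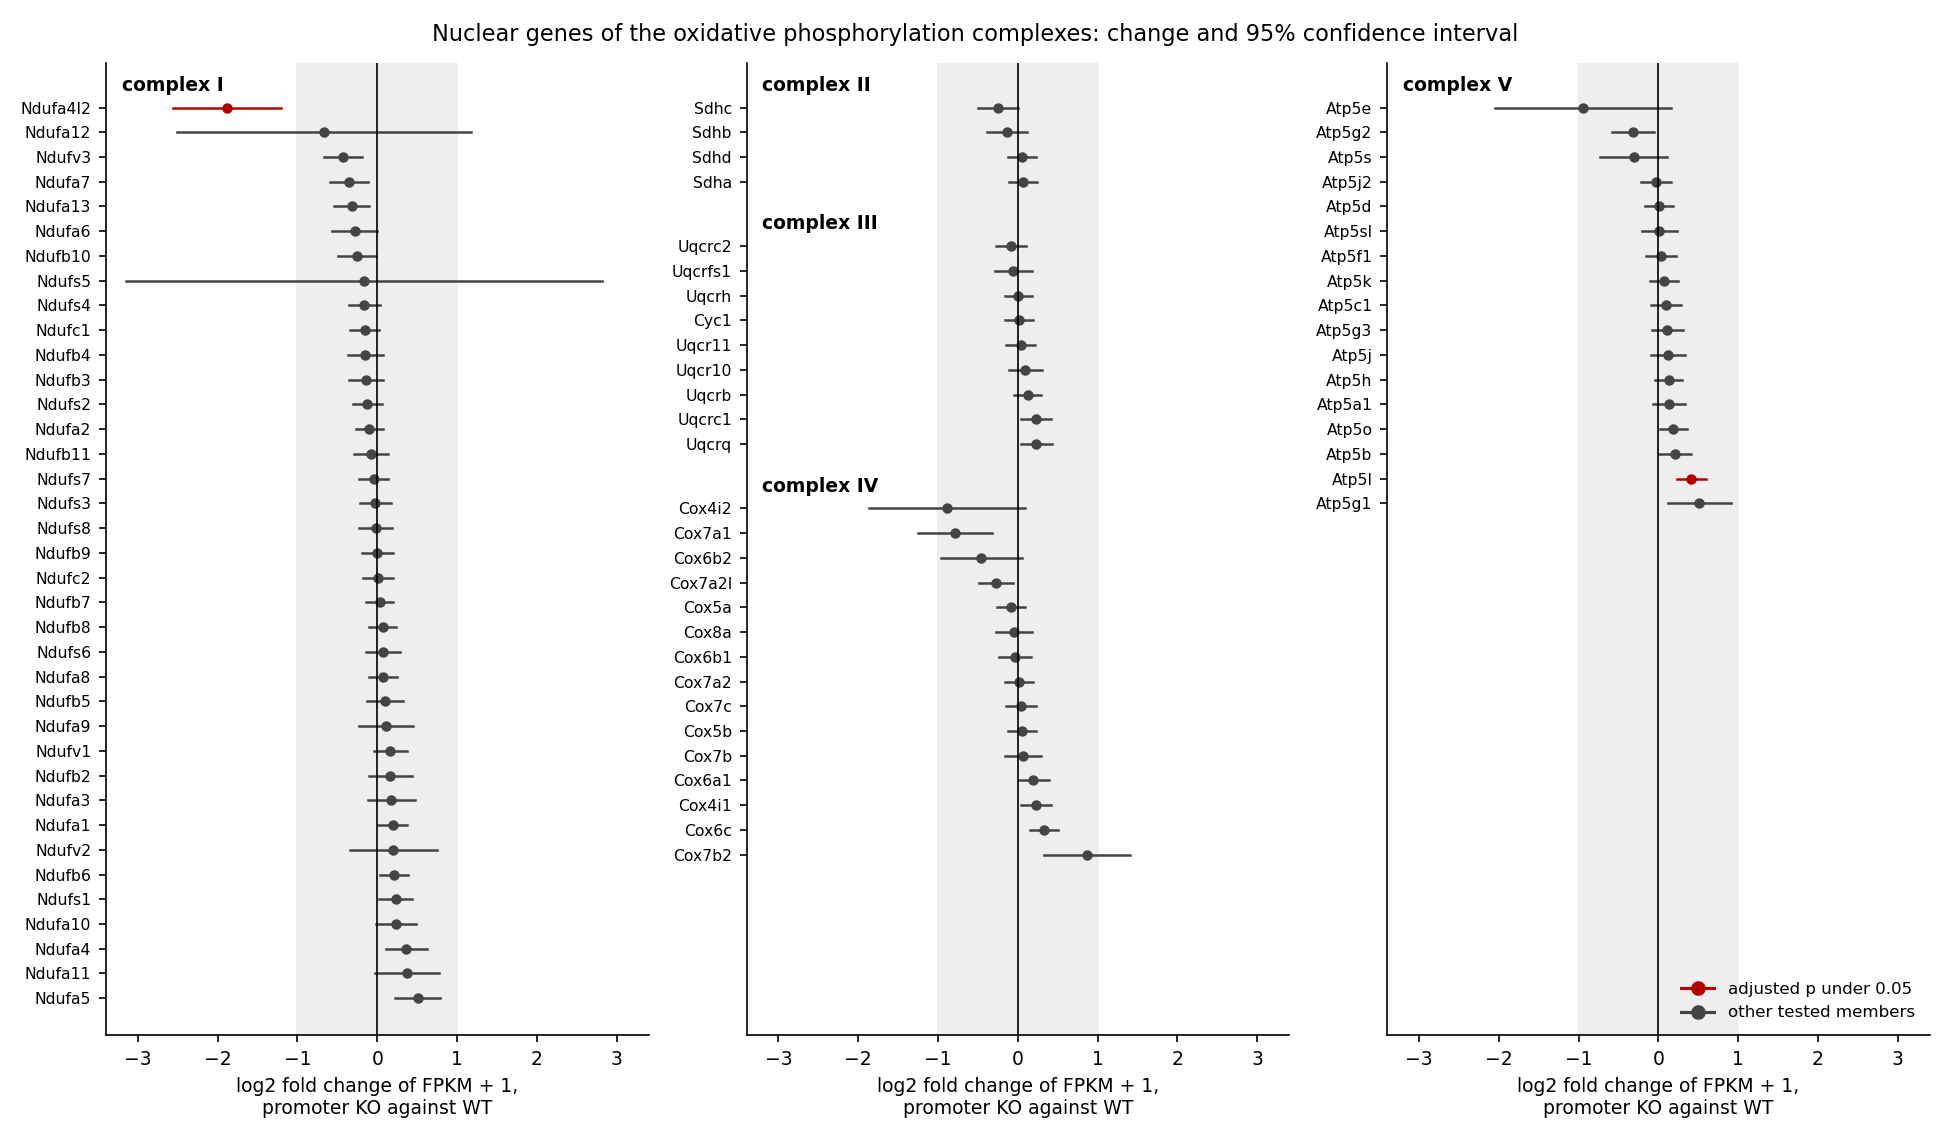
Log2 fold change of FPKM + 1, promoter KO against WT, of the 82 tested members, grouped by complex and ordered within each. Points are limma estimates from 2 samples of each genotype, bars are 95% confidence intervals, and the grey band spans −1 to 1. Most points lie close to 0, and the members in red, *Ndufa4l2* at −1.88 and *Atp5l* at 0.41, had an adjusted p under 0.05.

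**Figure D2:**
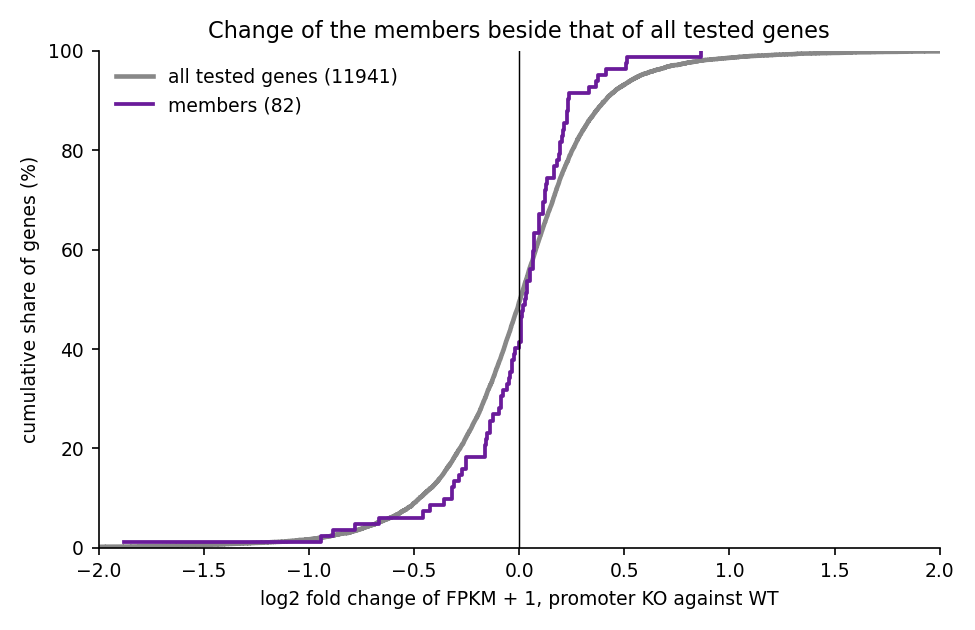
Cumulative share (%) of genes, on the vertical axis, at or below each log2 fold change of FPKM + 1, on the horizontal axis, for the 82 tested members and all 11941 tested genes. The members rise more steeply around 0, with medians of 0.03 for the members and 0.00 for all tested genes. Genes of similar FPKM to the members were not drawn apart.

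The start sites of these genes are known for motifs of a few factors that act on respiratory genes, and RefSeq windows from 250 bases before to 50 after the start (build GRCm38.p6) were read for 69 of the 85 members, 75 windows in all. On either strand, CGCATGCG, the core of the NRF1 motif, stood in 9 of the 75 windows (12.0%), beside 1.86% of all 32817 windows and 3.98% of the windows of tested genes. AAGATGGCG, the motif of YY1, also stood in 9 windows (12.0%), of 8 genes, beside 1.40% of all windows and 3.10% of those of tested genes, with 7 of its matches beginning between 23 and 36 bases after the start site. CCGGAAGT, bound by ETS factors such as GABP, stood in 5 windows (6.67%, beside 3.89% and 8.10%), and TCAAGGTCA, bound by ERR receptors, in 2 (2.67%, beside 0.424% and 0.292%). At least 1 of the 4 motifs stood in a window of 22 members. A match is a run of letters and not a measured site, and a window without one lacks only these letters.

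The windows of 4 members are shown because they carry the results in different ways. *Atp5l* (chr9:44920693-44920992, minus strand) is the member that rose, *Atp5j* (chr16:84834927-84835226, minus strand) holds the NRF1 and YY1 motifs together, *Uqcr11* (chr10:80406772-80407071, minus strand) is the most abundant complex III member and holds the ETS and NRF1 motifs, and *Cox7a1* (chr7:30183921-30184220, plus strand) is a muscle isoform of complex IV with none of the 4 motifs. Each is written 5′ to 3′ from RefSeq on the gene's strand, with the motif matches in capitals. *Ndufa4l2* has no window in the table.
*Atp5l*: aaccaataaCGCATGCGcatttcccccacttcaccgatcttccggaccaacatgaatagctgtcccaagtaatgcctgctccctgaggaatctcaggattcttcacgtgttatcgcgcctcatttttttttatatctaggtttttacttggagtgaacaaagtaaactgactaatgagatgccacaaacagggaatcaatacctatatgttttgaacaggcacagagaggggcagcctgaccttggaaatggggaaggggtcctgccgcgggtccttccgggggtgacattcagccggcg
*Atp5j*: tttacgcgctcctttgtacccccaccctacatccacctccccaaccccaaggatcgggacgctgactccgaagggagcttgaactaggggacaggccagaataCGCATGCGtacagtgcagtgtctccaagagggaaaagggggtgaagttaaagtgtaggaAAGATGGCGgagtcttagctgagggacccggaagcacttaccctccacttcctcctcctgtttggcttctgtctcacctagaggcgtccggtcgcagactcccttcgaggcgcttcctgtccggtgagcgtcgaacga
*Uqcr11*: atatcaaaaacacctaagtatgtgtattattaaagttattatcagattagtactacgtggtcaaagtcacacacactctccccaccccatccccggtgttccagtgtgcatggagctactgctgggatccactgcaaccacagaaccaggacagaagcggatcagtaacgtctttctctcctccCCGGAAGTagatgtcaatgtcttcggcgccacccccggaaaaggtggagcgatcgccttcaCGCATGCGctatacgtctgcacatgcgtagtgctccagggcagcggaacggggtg
*Cox7a1*: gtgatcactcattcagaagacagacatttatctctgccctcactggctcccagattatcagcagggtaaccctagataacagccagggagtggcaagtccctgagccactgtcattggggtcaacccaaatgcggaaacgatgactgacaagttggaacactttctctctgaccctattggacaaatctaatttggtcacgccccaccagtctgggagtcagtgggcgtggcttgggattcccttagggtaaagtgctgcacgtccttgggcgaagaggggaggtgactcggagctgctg

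Complex I, the NADH dehydrogenase, is the largest group, and its summed level did not separate the genotypes. The 37 members summed to 5991 FPKM (WT 1), 6471 FPKM (WT 2), 6414 FPKM (promoter KO 1) and 6120 FPKM (promoter KO 2). The 2 promoter KO samples lay between the WT samples, and the mean differed by 0.581% (exact permutation test, p = 1). The sums include *Ndufa4* (617, 616, 876 and 723 FPKM in the same order), whose protein is now assigned to complex IV. No sum was made without it. All 37 were tested, 1 fell and 0 rose at an adjusted p under 0.05, 6 were lower (16.2%) and 5 higher (13.5%) at an unadjusted limma p under 0.05, beside 15.6% and 15.0% of all tested genes, and the median log2 fold change was 0.00, or −0.04 with quantile normalization and −0.06 without WT 1.

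*Ndufa4l2* is a homologue of *Ndufa4* that is known as a target of the hypoxia-inducible factor HIF-1. It was at 53.6 FPKM (WT 1), 94.6 FPKM (WT 2), 16.0 FPKM (promoter KO 1) and 21.7 FPKM (promoter KO 2). The higher promoter KO sample lay below the lower WT sample, at a mean of 18.9 ± 4.05 FPKM against 74.1 ± 29.0 FPKM (SD, n = 2 each). The log2 fold change was −1.88 (95% confidence interval −2.55 to −1.20, adjusted p = 0.0389 in limma). With all samples kept, the adjusted p was 0.144 with no filter and 0.0639 without the trend. It was 0.141 without WT 2 and 0.171 without promoter KO 1, fits in which 0 of the 11941 genes passed and the log2 fold change of *Ndufa4l2* was still −1.48 and −1.67. The lowest adjusted p in limma over 11 alternatives was 0.00675. It came with the replicate number as a block, a pairing that the labels do not state. The gene lies on chromosome 10 from 127514967 to 127517154 (plus strand, GRCm38) and overlaps *Shmt2* on the other strand, which was at 86.9, 107, 92.3 and 73.3 FPKM in the same order of samples.

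*Ndufa4* itself, grouped here by its symbol although its protein is now assigned to complex IV, was the most abundant of the 37. It was at 617 FPKM (WT 1), 616 FPKM (WT 2), 876 FPKM (promoter KO 1) and 723 FPKM (promoter KO 2). Promoter KO 1 stood highest and promoter KO 2 next, with a log2 fold change of 0.37 (95% confidence interval 0.11 to 0.62) that missed the threshold (adjusted p = 0.0874). Without promoter KO 2 the adjusted p was 0.0485, and without promoter KO 1 the log2 fold change was 0.23 (adjusted p = 0.275), in a range of 0.0485 to 0.323 over the alternatives. Of the summed FPKM of this pair, *Ndufa4l2* made up 7.99% in WT 1 and 13.3% in WT 2 but 1.79% and 2.92% in promoter KO 1 and 2.

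*Ndufa5*, an accessory subunit of the arm that protrudes into the matrix, had the highest fold change of complex I. It was at 136 FPKM (WT 1), 146 FPKM (WT 2), 223 FPKM (promoter KO 1) and 181 FPKM (promoter KO 2). The promoter KO samples were the higher ones, and the log2 fold change of 0.51 (95% confidence interval 0.23 to 0.79) missed the threshold (adjusted p = 0.0635, and 0.0424 without promoter KO 2, in a range of 0.0424 to 0.247). Picked after their values were seen, the accessory subunits *Ndufv3* (252, 284, 189 and 210 FPKM), *Ndufa7* (399, 468, 332 and 343 FPKM) and *Ndufa13* (58.9, 64.3, 47.7 and 50.7 FPKM) had log2 fold changes of −0.43, −0.36 and −0.32 and adjusted p of 0.0630, 0.0790 and 0.0869. In these 3 genes both promoter KO samples were the lower ones. Among the core subunits that carry the electrons, *Ndufs1*, with iron-sulfur clusters, was at 41.1, 41.7, 50.4 and 47.3 FPKM with a log2 fold change of 0.23 (95% confidence interval 0.02 to 0.44), and *Ndufv1*, the subunit that binds NADH, at 98.6, 106, 119 and 111 FPKM with 0.17 (−0.04 to 0.37). *Ndufv2*, also a core subunit with an iron-sulfur cluster, was at 79.3, 84.7, 73.6 and 121 FPKM, overlapping between genotypes, with 0.20 (−0.34 to 0.75).

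Complex II, succinate dehydrogenase, has no subunit in mitochondrial DNA and is represented by all 4 of its genes. They summed to 385 FPKM (WT 1), 402 FPKM (WT 2), 371 FPKM (promoter KO 1) and 391 FPKM (promoter KO 2). The groups overlapped, with a mean difference of −3.33% (exact permutation test, p = 0.667). None of the 4 passed an adjusted p of 0.05 in limma, 1 was lower and 0 higher at an unadjusted p, beside 15.6% and 15.0% of all tested genes, and the median log2 fold change was −0.04, or 0.01 without promoter KO 1.

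*Sdha*, which holds the flavin and oxidizes succinate, was at 111, 110, 114 and 117 FPKM in WT 1, WT 2, promoter KO 1 and promoter KO 2, a log2 fold change of 0.06 (95% confidence interval −0.11 to 0.24). *Sdhb*, the iron-sulfur subunit, was at 82.5, 91.0, 73.3 and 84.2 FPKM, with overlapping groups and a log2 fold change of −0.14 (−0.39 to 0.11) that was −0.07 without WT 2, −0.04 without promoter KO 1 and −0.24 without promoter KO 2. Both membrane anchors were at similar levels to these, *Sdhc* at 80.1, 92.8, 69.5 and 75.02 FPKM and *Sdhd* at 111, 108, 114 and 114 FPKM. The promoter KO samples were below the WT samples in *Sdhc*, with a log2 fold change of −0.25 (−0.50 to −0.00) and an adjusted p of 0.161 in limma, and slightly above them in *Sdhd*, with 0.05 (−0.13 to 0.23). Without WT 2 these were −0.15 and 0.03.

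In complex III, the cytochrome bc1 complex, all 9 members had a 95% confidence interval within −0.5 and 0.5. They summed to 2544 FPKM (WT 1), 2486 FPKM (WT 2), 2736 FPKM (promoter KO 1) and 2607 FPKM (promoter KO 2). Both promoter KO sums were higher than either WT sum, by 6.22% on the mean (exact permutation test, p = 0.33, the smallest p that 2 samples against 2 can give), a log2 ratio of 0.09 that was 0.05 without promoter KO 1. No member passed an adjusted p of 0.05 in limma, 0 were lower and 2 higher (22.2%) at an unadjusted p, beside 15.6% and 15.0% of all tested genes, and the median log2 fold change was 0.04, or −0.02 with quantile normalization.

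*Uqcr11*, a small subunit and the most abundant of the group, was at 504, 476, 517 and 489 FPKM in WT 1, WT 2, promoter KO 1 and promoter KO 2. Its values overlapped between genotypes, and the log2 fold change was 0.04 (95% confidence interval −0.15 to 0.22), turning to −0.02 with quantile normalization, −0.00 without WT 2 and −0.00 without promoter KO 1. *Uqcrq*, another small subunit, was at 427, 409, 514 and 467 FPKM in the same order, the highest fold change of the complex at 0.23 (0.03 to 0.43, adjusted p = 0.125 in limma). *Uqcrc2*, a core subunit, was at 90.9, 95.9, 89.0 and 86.6 FPKM, the lowest at −0.09 (−0.28 to 0.10), or −0.05 without WT 2. *Cyc1*, which holds the heme that reduces cytochrome c, was at 266, 263, 272 and 260 FPKM, with overlapping groups and a log2 fold change of 0.01 (−0.16 to 0.18).

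Complex IV, cytochrome c oxidase, had a higher summed level in the promoter KO samples, while its isoforms *Cox4i2* and *Cox7a1* had the lowest fold changes. The 18 members summed to 6323 FPKM (WT 1), 6688 FPKM (WT 2), 7117 FPKM (promoter KO 1) and 6700 FPKM (promoter KO 2). *Ndufa4*, grouped under complex I by its symbol, is not in these sums. The mean was higher by 6.19%, although WT 2 and promoter KO 2 differed by little (exact permutation test, p = 0.33). The log2 ratio of 0.09 was 0.05 without WT 1 and 0.04 without promoter KO 1, and 0.13 without either of the others. With the members weighted equally, as a mean of log2(FPKM + 1), the difference was 0.00. Of the 15 tested members 0 passed an adjusted p of 0.05 in limma in either direction, 2 were lower (13.3%) and 4 higher (26.7%, *Cox7b2* among them) at an unadjusted p, beside 15.6% and 15.0% of all tested genes, and the median log2 fold change was 0.02, or −0.01 with quantile normalization and −0.02 without promoter KO 1.

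**Figure D3:**
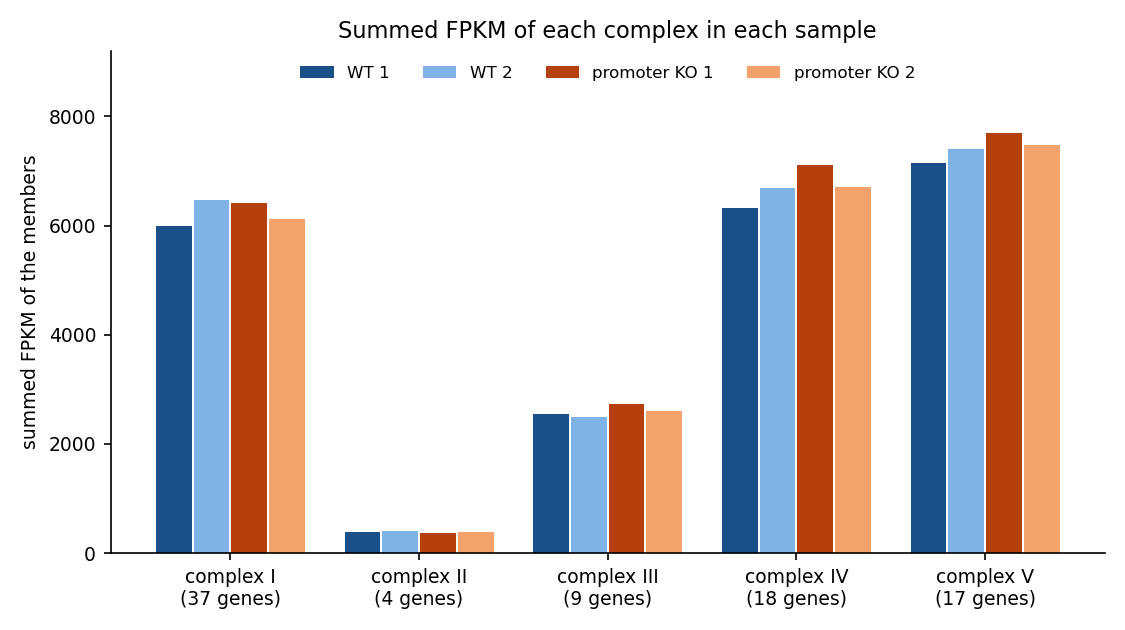
Summed FPKM of the members of each complex in each of the 4 samples, with bars that start at 0 and the number of genes under each complex. The bars of complexes III, IV and V are higher in both promoter KO samples than in both WT samples, by 6.22%, 6.19% and 4.37% on the mean, and those of complexes I and II overlap between genotypes.

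*Cox6a1*, the broadly expressed form of subunit 6a and the most abundant member of all, was at 1468 FPKM (WT 1), 1549 FPKM (WT 2), 1792 FPKM (promoter KO 1) and 1663 FPKM (promoter KO 2). WT 1 and WT 2 were the lower samples, and the log2 fold change was 0.19 (95% confidence interval 0.00 to 0.39, adjusted p = 0.160 in limma). Its muscle isoform *Cox6a2* was nearly absent, at 0.105 FPKM in WT 2 and at 0 in the other 3 samples. *Cox6c*, picked after its values were seen, came closer to the threshold, at 435, 451, 567 and 547 FPKM. The promoter KO values were the higher ones, at a log2 fold change of 0.33 (0.16 to 0.50, adjusted p = 0.0583), and 2 near-identical copies of the gene are annotated.

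Several complex IV subunits come as a broadly expressed form and a form known from muscle, lung or testis. *Cox4i1*, the common form of subunit 4, was at 720, 762, 898 and 838 FPKM in WT 1, WT 2, promoter KO 1 and promoter KO 2, with both promoter KO samples higher and a log2 fold change of 0.23 (95% confidence interval 0.04 to 0.42, adjusted p = 0.120 in limma). *Cox4i2*, the lung form, was at 2.19, 6.52, 1.31 and 2.05 FPKM. Its promoter KO values were the lower ones, but WT 1 was close to promoter KO 2, and the log2 fold change of −0.88 (−1.86 to 0.09, adjusted p = 0.195) was −0.27 without WT 2 and −1.50 without WT 1. The lung form made up 0.304% and 0.848% of the pair's FPKM in WT and 0.146% and 0.244% in promoter KO.

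*Cox7a1*, the heart and muscle form of subunit 7a, was at 46.8 FPKM (WT 1), 69.4 FPKM (WT 2), 35.0 FPKM (promoter KO 1) and 30.5 FPKM (promoter KO 2). The promoter KO values were the 2 lowest, and the log2 fold change was −0.78 (95% confidence interval −1.25 to −0.32) with an adjusted p of 0.0685 in limma, above the threshold. Without WT 1 the adjusted p was 0.0482, and without WT 2 the log2 fold change was −0.50 (adjusted p = 0.247), in a range of 0.0482 to 0.247 over the alternatives. The liver form *Cox7a2* was level, at 133, 131, 134 and 134 FPKM with a log2 fold change of 0.02 (−0.16 to 0.19). *Cox7a2l*, related to these and known for joining complexes III and IV, was at 113, 127, 98.6 and 99.2 FPKM, with −0.27 (−0.49 to −0.06, adjusted p = 0.109). *Cox7a1* made up 16.0% and 21.2% of the FPKM of these 3 genes in WT and 13.1% and 11.6% in promoter KO.

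*Cox6b1*, the common form of subunit 6b, was at 439, 480, 430 and 466 FPKM in WT 1, WT 2, promoter KO 1 and promoter KO 2, overlapping between genotypes. Its log2 fold change of −0.04 (95% confidence interval −0.24 to 0.17) turned to 0.03 without WT 2 and 0.02 without promoter KO 1. The testis form *Cox6b2* was at 67.5, 108, 62.5 and 61.5 FPKM, with −0.46 (−0.97 to 0.05, adjusted p = 0.198 in limma), and WT 2 stood apart from the other 3 samples, so that the value was −0.12 without WT 2 and −0.79 without WT 1. *Cox7b2*, the testis form of subunit 7b, was at 0.130, 0.576, 1.21 and 1.68 FPKM, and passed the filter only through the promoter KO samples, so it had to be higher there. Its log2 fold change was 0.87 (0.33 to 1.40, adjusted p = 0.0727), and 1.95 with a pseudocount of 0.1. With the replicate number as a block, a pairing that the labels do not state, the adjusted p in limma was 0.0418.

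The forms of subunit 8 divide in the same way. *Cox8a*, the broadly expressed form, was at 676, 761, 731 and 660 FPKM in WT 1, WT 2, promoter KO 1 and promoter KO 2. Its genotypes overlapped, and the log2 fold change of −0.05 (95% confidence interval −0.28 to 0.18) turned to 0.04 without WT 2 and 0.03 without promoter KO 2. The muscle form *Cox8b* was listed at 0 in all 4 samples, and the testis form *Cox8c*, below the filter, was at 0 in WT, with 0.779 FPKM for promoter KO 1 and 0.875 FPKM for promoter KO 2.

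**Figure D4:**
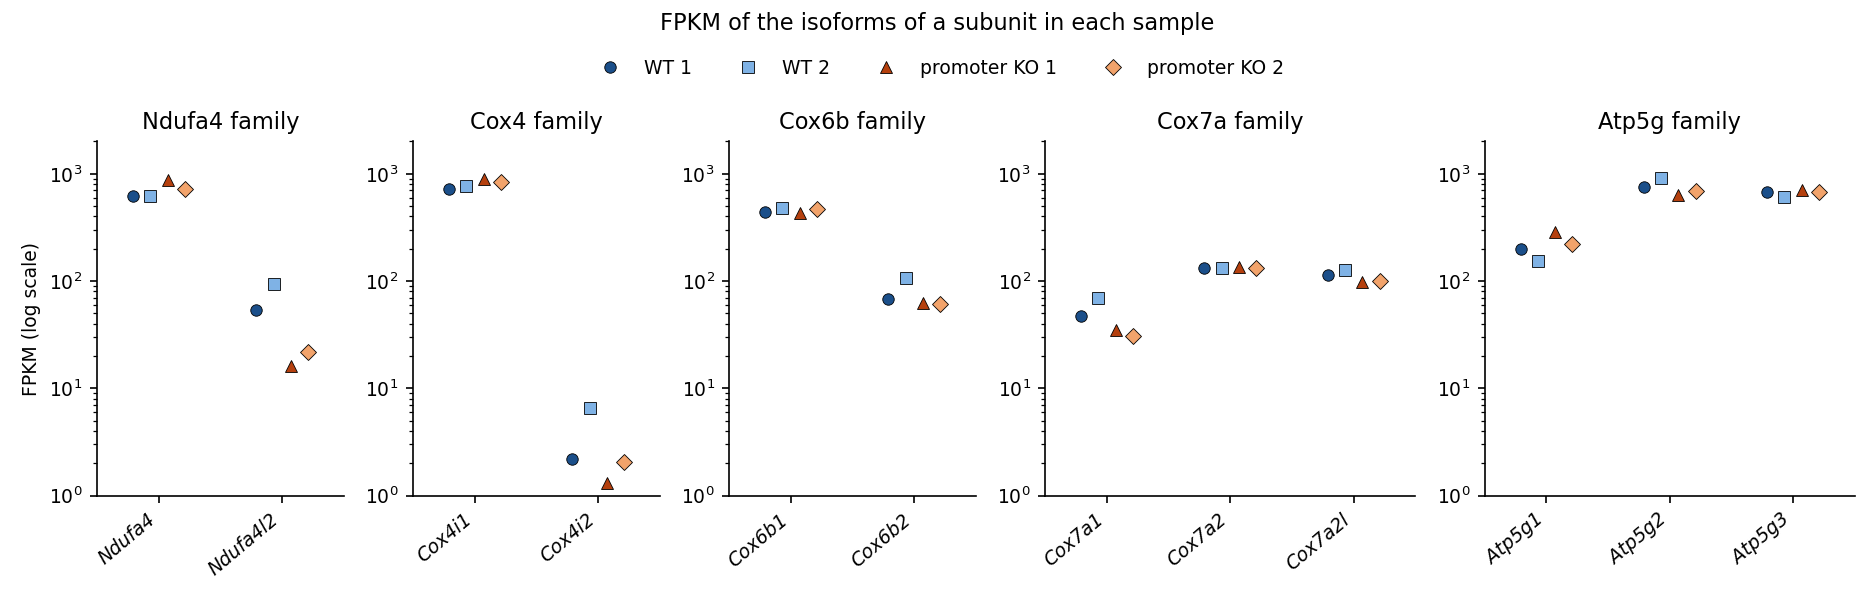
FPKM, on a log scale, of the isoforms of 5 subunits in each of the 4 samples, 1 panel per family. In *Ndufa4l2*, *Cox4i2*, *Cox6b2*, *Cox7a1*, *Cox7a2l* and *Atp5g2* the promoter KO samples lie below the WT samples, in *Ndufa4*, *Cox4i1*, *Cox7a2*, *Atp5g1* and *Atp5g3* above, and in *Cox6b1* the genotypes overlap.

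Complex V, the ATP synthase, had the highest share of members whose promoter KO samples were the higher ones. Its 17 members summed to 7141 FPKM (WT 1), 7392 FPKM (WT 2), 7686 FPKM (promoter KO 1) and 7482 FPKM (promoter KO 2). The promoter KO samples were above the WT samples by 4.37% on the mean (exact permutation test, p = 0.33), a log2 ratio of 0.06 that was 0.04 without WT 1 or without promoter KO 1. They were the 2 highest in 9 members and the 2 lowest in 3, beside 32.9% and 32.4% of all tested genes, and 6 of the 9 have near-identical annotated copies. At an adjusted p under 0.05 in limma 1 member rose and 0 fell, at an unadjusted p 1 was lower (5.88%) and 4 higher (23.5%), beside 15.6% and 15.0% of all tested genes, and the median log2 fold change was 0.09, or 0.02 with quantile normalization and 0.01 without the members that have such copies.

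*Atp5l* encodes subunit g, in the membrane part where the synthase forms dimers. It was at 305 FPKM (WT 1), 300 FPKM (WT 2), 418 FPKM (promoter KO 1) and 389 FPKM (promoter KO 2). The lower promoter KO sample exceeded the higher WT sample, at a mean of 403 ± 20.2 FPKM against 303 ± 3.93 FPKM (SD, n = 2 each). The log2 fold change was 0.41 (95% confidence interval 0.23 to 0.59, adjusted p = 0.0476). With a sample left out the log2 fold change stayed near this, at 0.43 without WT 1, 0.40 without WT 2, 0.36 without promoter KO 1 and 0.46 without promoter KO 2, while the adjusted p was 0.114, 0.245, 0.179 and 0.0520. In the fits without WT 2 and without promoter KO 1, 0 of the 11941 genes passed. The adjusted p in limma was under 0.05 in 2 of 11 alternatives. The lowest, 0.0273, came with the replicate number as a block, a pairing that the labels do not state. The gene lies on chromosome 9 from 44912557 to 44920742 (minus strand, GRCm38), with 11 near-identical annotated copies, 9 of them not protein-coding, that can share its reads.

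The catalytic head of the synthase is built mainly of alpha and beta subunits. *Atp5b*, the catalytic beta subunit and the most abundant member of complex V, was at 1211, 1178, 1459 and 1305 FPKM in WT 1, WT 2, promoter KO 1 and promoter KO 2. Its promoter KO values were the 2 highest, with a log2 fold change of 0.21 (95% confidence interval 0.00 to 0.41, adjusted p = 0.158 in limma), or 0.13 without promoter KO 1. *Atp5a1*, the alpha subunit, was at 620, 618, 718 and 640 FPKM, with 0.13 (−0.07 to 0.33). *Atp5s* and *Atp5sl*, whose products are not subunits of the synthase, were at 2.68, 3.47, 2.04 and 2.52 FPKM and at 32.9, 31.4, 32.2 and 32.6 FPKM.

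The membrane ring of the synthase is made of subunit c, for which 3 genes encode the same mature protein. *Atp5g1* was at 201, 155, 284 and 224 FPKM in WT 1, WT 2, promoter KO 1 and promoter KO 2. Its promoter KO samples were the higher ones, with a log2 fold change of 0.51 (95% confidence interval 0.12 to 0.90, adjusted p = 0.104 in limma). The value was 0.33 without WT 2 and 0.34 without promoter KO 1. With the replicate number as a block, a pairing that the labels do not state, the adjusted p in limma was 0.0190. *Atp5g2* was at 759, 906, 631 and 699 FPKM, and its promoter KO samples were the lower ones. The log2 fold change of *Atp5g2* was −0.32 (−0.58 to −0.05, adjusted p = 0.120), or −0.19 without WT 2. With the same block its adjusted p in limma was 0.0436. *Atp5g3* was at 670, 611, 706 and 677 FPKM, with 0.11 (−0.08 to 0.31), or 0.04 without WT 2, 0.18 without WT 1 and 0.02 with quantile normalization. Summed over the 3 genes, the samples held 1629, 1672, 1621 and 1599 FPKM, of which *Atp5g1* made up 12.3% and 9.29% in WT and 17.5% and 14.0% in promoter KO, and *Atp5g2* 46.6% and 54.2% against 39.0% and 43.7%.

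A few members, *Cox4i2* above among them, differed more than 2-fold between samples of 1 genotype. *Atp5e*, the epsilon subunit of the synthase, was at 133 FPKM (WT 1), 388 FPKM (WT 2), 122 FPKM (promoter KO 1) and 114 FPKM (promoter KO 2). WT 2 alone stood apart, and the log2 fold change of −0.94 (95% confidence interval −2.05 to 0.16, adjusted p = 0.214 in limma) was −0.17 without WT 2 (adjusted p = 0.487) and −1.71 without WT 1 (adjusted p = 0.0233), in a range of 0.0233 to 0.487 over the alternatives. *Ndufa12*, an accessory subunit of complex I, was at 80.6, 211, 176 and 37.6 FPKM, so that both genotypes spread more than 2-fold. The log2 fold change of *Ndufa12* was −0.67 (−2.51 to 1.18), which leaves its direction undetermined.

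*Ndufs5*, another accessory subunit of complex I, was at 0.00017 FPKM (WT 1), 7.68 FPKM (WT 2), 5.91 FPKM (promoter KO 1) and 0.00021 FPKM (promoter KO 2). One sample of each genotype was thus near 0, and the log2 fold change was −0.16 with a 95% confidence interval from −3.14 to 2.81. Its near-identical copy *BC002163*, a processed pseudogene on chromosome 16 from 42955631 to 42955949 (plus strand), was listed at 131, 137, 128 and 138 FPKM in the same order. The sum of the 2 was 131, 144, 134 and 138 FPKM, close in all 4 samples. In total 22 of the 85 members have at least 1 near-identical annotated copy, and how reads were shared between copies was not tested.

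**Figure D5:**
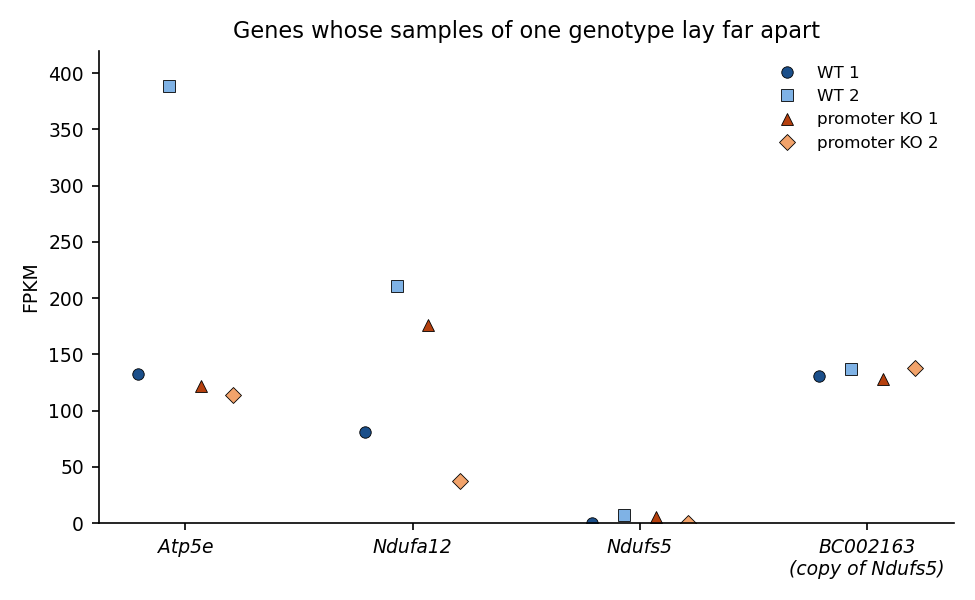
FPKM in each of the 4 samples of 3 members and of *BC002163*, the near-identical copy of *Ndufs5*. With a minimum of 5 FPKM, the 3 are among the 4 members whose samples of 1 genotype differed more than 2-fold. *Atp5e* is high in WT 2 alone, *Ndufa12* is high in WT 2 and promoter KO 1, and *Ndufs5* is near 0 in WT 1 and promoter KO 2 while *BC002163* lies between 128 and 138 FPKM in every sample.

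Among 8 listed subunits and carriers outside the symbol rule, all tested, 0 passed an adjusted p of 0.05 in limma. At an unadjusted p 3 were lower and 2 higher, larger shares than the 15.6% and 15.0% of all tested genes, and the median log2 fold change was −0.05. *Cycs*, the cytochrome c that links complexes III and IV, was at 59.2 FPKM (WT 1), 59.8 FPKM (WT 2), 92.8 FPKM (promoter KO 1) and 71.1 FPKM (promoter KO 2). Promoter KO 1 stood apart above the other 3 samples, with a log2 fold change of 0.44 (95% confidence interval 0.12 to 0.77) and an adjusted p of 0.0969, or 0.0432 without promoter KO 2, in a range of 0.0432 to 0.330. Without promoter KO 1 the log2 fold change was 0.25. Picked after their values were seen, *Higd1a*, a small membrane protein of the respiratory chain, was at 70.2, 83.3, 47.2 and 53.8 FPKM and its relative *Higd2a* at 87.9, 84.9, 66.2 and 65.8 FPKM. The promoter KO samples were the lower ones in each, with log2 fold changes of −0.59 and −0.38 and adjusted p of 0.0537 and 0.0543. The 13 genes of the complexes in mitochondrial DNA were looked up by their symbols, which start with mt-. Of these, 0 were listed, so they were not analysed here.

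Of the 47 tested assembly factors, 1 fell and 0 rose at an adjusted p under 0.05 in limma, 7 were lower and 6 higher at an unadjusted p, near the 15.6% and 15.0% of all tested genes, and the median was −0.03. The gene that fell was *Cox20*, a chaperone that helps insert the complex IV core subunit COX2 into the membrane. It was at 30.9 FPKM (WT 1), 22.4 FPKM (WT 2), 8.41 FPKM (promoter KO 1) and 11.01 FPKM (promoter KO 2). The promoter KO values were the 2 lowest, with a log2 fold change of −1.36 (95% confidence interval −1.83 to −0.89, adjusted p = 0.0377). The adjusted p was 0.0725 without WT 1 (log2 fold change −1.14), and 0.125 without WT 2 (−1.58) and 0.150 without promoter KO 1 (−1.19), fits in which 0 of the 11941 genes passed. The adjusted p in limma was under 0.05 in 6 of 11 alternatives. Its lowest value, 0.0224, came with the replicate number as a block, a pairing that the labels do not state.

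The regulators of mitochondrial biogenesis and mitochondrial DNA also had 0 genes past an adjusted p of 0.05 among 19 tested, with 1 lower and 4 higher at an unadjusted limma p, beside 15.6% and 15.0% of all tested genes, and a median of 0.14. The lower one was *Polg*, the mitochondrial DNA polymerase, at 62.0, 54.6, 37.7 and 43.5 FPKM, with both promoter KO samples lower. Its log2 fold change was −0.51 (adjusted p = 0.0594 in limma). The 4 higher ones were *Peo1*, *Tefm*, *Pprc1* and *Yy1*, with log2 fold changes of 0.40, 0.28, 0.28 and 0.26. *Ppargc1a*, the coactivator known for inducing mitochondrial genes in muscle and brown fat, was below the filter, with 0.0290 FPKM in promoter KO 1, 0.0156 FPKM in promoter KO 2 and 0 in WT. Its relative *Ppargc1b* was at 3.14, 2.50, 3.37 and 3.13 FPKM in WT 1, WT 2, promoter KO 1 and promoter KO 2, overlapping between genotypes, with a log2 fold change of 0.16 (95% confidence interval −0.22 to 0.54), or 0.04 without WT 2 and 0.28 without WT 1. *Yy1*, the most abundant of the list, was at 69.0, 61.9, 80.0 and 76.4 FPKM, with the promoter KO samples higher and a log2 fold change of 0.26 (0.03 to 0.48, adjusted p = 0.129). *Nrf1* was at 26.7, 24.3, 29.4 and 25.2 FPKM, with a log2 fold change of 0.09 (−0.19 to 0.38) that was −0.01 without promoter KO 1 and 0.20 without promoter KO 2, and the nuclear receptor *Esrra* at 17.2, 17.0, 15.1 and 16.5 FPKM, with −0.11 (−0.37 to 0.15), or −0.05 without promoter KO 1 and −0.17 without promoter KO 2. *Tfam*, which packages and transcribes mitochondrial DNA, was at 25.9, 26.0, 28.1 and 28.2 FPKM, with both promoter KO samples higher and a log2 fold change of 0.11 (−0.10 to 0.33).

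The cell states that moved between genotypes are given beside these values, and their part in the levels of the respiratory genes was not tested. Besides the 6 of 9 mesendoderm markers that fell (median log2 fold change −2.33), 2 of 10 pluripotency markers rose and 0 fell (median 0.84), and the list summed to 2818, 2593, 4897 and 3746 FPKM in WT 1, WT 2, promoter KO 1 and promoter KO 2. Those that rose were *Utf1*, at 262, 297, 828 and 617 FPKM, and *Dnmt3l*, at 62.0, 54.8, 319 and 157 FPKM, while *Nanog*, at 140, 113, 94.1 and 98.7 FPKM (log2 fold change −0.38), was lower in both promoter KO samples. Of 12 markers of primitive and extraembryonic endoderm 7 rose and 0 fell (median 1.30), but 1 of the 7, *Sox7*, passed the filter only through the promoter KO samples and could only be higher, and *Sox17* was lower in both promoter KO samples (13.3, 17.2, 6.77 and 10.2 FPKM, −0.79). The list had sums of 126, 165, 274 and 349 FPKM, with the matrix gene *Sparc* the most abundant at 46.0, 59.3, 111 and 134 FPKM. All calls in these lists, like all 226 lower and 201 higher genes of the whole test, were lost without WT 2 and without promoter KO 1, when 0 of 11941 genes passed in either direction.

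Markers of heart and skeletal muscle, male germ line, neuroectoderm and trophectoderm were also read in lists, and no list was made for lung. Of 9 heart and skeletal muscle markers 3 were tested and 0 were called. The list summed to 9.31, 28.1, 11.1 and 14.6 FPKM in WT 1, WT 2, promoter KO 1 and promoter KO 2. *Myl7* had the highest mean, at 2.82, 14.3, 6.92 and 3.76 FPKM, but lay below *Actc1* in WT 1 and promoter KO 2. WT 2 had the highest sum of this list, and the highest value of *Cox7a1*, *Cox4i2* and *Ndufa4l2*. It also had the highest sums of the mesendoderm, male germ line and trophectoderm lists. Of 7 male germ line markers 3 were tested and 0 were called (median 0.42). The list sums were 54.9, 65.9, 57.3 and 48.9 FPKM. Most of each sum was *Sycp3*, at 47.9, 58.3, 44.2 and 38.9 FPKM (log2 fold change −0.34). *Ddx4* (0.42) and *Dazl* (0.90, past the filter only through the promoter KO samples) were higher in both promoter KO samples, and *Tnp1*, *Prm1* and *Acrv1*, which mark haploid germ cells, were at 0 in every sample. Of 6 neuroectoderm markers 2, *Nes* (−1.10) and *Otx2* (0.01), were tested and 0 were called (median −0.55), with sums of 94.3, 87.0, 77.2 and 81.8 FPKM led by *Otx2*. Below the filter, *Sox1*, *Pax6* and *Zic1* were under 1 FPKM throughout and higher in both promoter KO samples. Of 5 trophectoderm markers 3 were tested and 1, *Tfap2c*, fell (9.60, 16.2, 3.87 and 3.83 FPKM, log2 fold change −1.48, adjusted p = 0.0422 in limma). The list sums were 19.2, 47.7, 8.78 and 11.7 FPKM. *Cdx2* had the highest mean, at 5.77, 25.4, 2.49 and 5.51 FPKM, but lay below *Tfap2c* in WT 1 and promoter KO 1.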

How the data were processed

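The authors deposited 1 file per sample, for 2 WT and 2 promoter KO samples. The deposited values name no unit; the paper's methods call it RPKM, and they were taken as FPKM because Cufflinks made them. On the aligner the sources differ: the methods name TopHat, Cufflinks, GENCODE M4 and Cuffdiff, and the submitters' processing notes list HISAT2 2.1.0, Cufflinks and Cuffnorm with mm10. Whether libraries were also scaled to each other, and the strand setting, are not stated.

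From the FPKM, log2(FPKM + 1) was fitted for genotype with limma 3.58.1 in R 4.3.3 (lmFit, eBayes with trend) over the genes that reach 1 FPKM in 2 or more of the 4 samples, two-sided, with Benjamini-Hochberg adjustment over all of them. Sums over a complex were compared by exact permutation tests, which cannot give a p below 0.33. A fold change on this scale is smaller than the ratio of FPKM where values are low. Complexes were assigned by symbol. The procedure was tested on simulated data.

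The members and all lists were chosen with earlier results of these data known. Named genes were, by a rule written with the lists, every member with an adjusted p under 0.05, the lowest, highest and most abundant member of each complex, the complex II genes, 7 isoform families, *Gm11549*, called genes of the pathway lists, *Ppargc1a*, *Ppargc1b*, *Esrra*, *Nrf1*, *Tfam*, *Cycs* and *Vdac1*, in all 38 genes. Other names were picked after their values were seen.

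A gene counted as a near-identical copy when a transcript of it matched the member's at 95% identity or more across 200 bases or more (BLAST 2.17.0, GENCODE M21). Of the 85 members 85 have a gene in GENCODE M21, and RefSeq matched 82 by symbol and 3 by an older symbol. Versions were pandas 2.3.3, numpy 2.4.6 and matplotlib 3.10.9 for tables and figures, under Python 3.11.15.

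The alternatives tried were the replicate number as a block, each sample left out in turn, and no filter or a mean of at least 5 FPKM. A pseudocount of 0.1 FPKM, no trend in limma, centring on sample medians and quantile normalization were also tried. So were ratios without a pseudocount and sums by mean log2. Members were also read without near-identical copies, without gene products that are not subunits and without chromosome 6. Added after seeing the data was a set without members whose replicates differ more than 2-fold, at a minimum of 5 FPKM. Sums with each sample left out were also added then. The alternative for counts was not run, because the values are FPKM. Protein likeness between isoforms was not computed, because no protein table was at hand.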

Additional observations from a re-analysis of the deposited data

How the results depend on the processing

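The counts of called members depended on the settings. Lower and higher members numbered 4 and 5 with the replicate block (667 lower and 535 higher of all tested genes; the labels do not state a pairing, and the deviations of same-numbered samples correlated at 0.0348 across genes), 0 and 0 with no filter (0 and 0 of all genes; 7 and 14 members at an unadjusted p), and 0 and 0 in limma without the trend (27 and 55 of all genes; 5 and 6 members at an unadjusted p). Higher members numbered 0 with a pseudocount of 0.1, a filter at a mean of 5 FPKM (108 lower and 95 higher of all genes), median centring (126 of all genes lower) and without members with near-identical copies, which leaves out *Atp5l*. With 1 sample left out, the lone sample was assumed to vary like the other genotype. Lower members then ranged from 0 to 3 and higher from 0 to 2, at an unadjusted p from 3 to 12 and 4 to 16, and calls among all genes from 0 to 248 lower and 0 to 238 higher, with 0 without WT 2 and without promoter KO 1. The cause was not tested.

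The medians stayed small. That of the members was 0.0626 with median centring, which moved the median of all genes to 0.04, and 0.00184 with quantile normalization (all genes 0.02). Centring gave 0.0679 for complex III and 0.12 for complex V, quantile normalization −0.0159 and 0.0190. Without near-identical copies complex IV had −0.0412 and complex V 0.0114, and without products that are not subunits complex V had 0.11. With 1 sample left out, complex I ranged from −0.0590 to 0.0430, complex III from 0.0206 to 0.0770 and complex V from 0.0467 to 0.0795. By mean log2 in place of sums, complex IV differed by 0.00131, complex V by 0.0250 and all members by −0.0154. *Uqcr11* had −0.0244 with quantile normalization and ranged from −0.00375 to 0.0770 with 1 sample left out, *Cox6b1* from −0.10 to 0.0288, *Cox8a* from −0.13 to 0.0386 and *Nrf1* from −0.0132 to 0.20. Over 33 tested named genes, 356 of 393 alternative values kept direction and side of the threshold, 18 lost and 9 gained the call, 8 changed sign in 4 genes and 2 moved in size.

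With 2 samples a genotype, bulk RNA and an estimated depth, small changes in 1 gene could not be resolved, and intervals cover only the spread between these samples. RNA levels do not give protein, assembly or activity of a complex.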

Other observations

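Genes that serve the mitochondrion around the respiratory chain were read in lists. Of 24 outer membrane, import and chaperone genes, 0 passed an adjusted p of 0.05 in limma, 3 were lower and 8 higher at an unadjusted p (beside 15.6% and 15.0% of all tested genes), and the median log2 fold change was 0.10. *Vdac1*, the main pore of the outer membrane, was at 269, 284, 245 and 245 FPKM in WT 1, WT 2, promoter KO 1 and promoter KO 2. Both promoter KO samples were lower, with a log2 fold change of −0.17 (95% confidence interval −0.35 to 0.00, adjusted p = 0.165). The chaperonin *Hspd1*, picked after its values were seen, was at 426, 388, 569 and 513 FPKM, with both promoter KO samples higher and a log2 fold change of 0.41 (0.19 to 0.63, adjusted p = 0.0585).

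All 77 mitochondrial ribosomal protein genes, which translate the subunits encoded in mitochondrial DNA, were tested. Of these, 0 passed an adjusted p of 0.05 in limma, and the median was 0.10. At an unadjusted p 6 were lower and 12 higher, beside 15.6% and 15.0% of all tested genes. The higher ones were thus near the share of all genes and the lower ones below it. The 77 genes summed to 5385 FPKM (WT 1), 5459 FPKM (WT 2), 5723 FPKM (promoter KO 1) and 5573 FPKM (promoter KO 2). The promoter KO sums were the 2 highest. Of 9 nucleotide and phosphate carriers and uncoupling proteins 6 were tested, 0 were called, 2 were lower and 1 higher at an unadjusted p (again beside 15.6% and 15.0%), and the median was −0.00. *Slc25a5*, the most abundant of them, which exchanges ADP and ATP across the inner membrane, was at 523, 522, 641 and 546 FPKM, and *Ucp1*, the uncoupling protein of brown fat, was under 1 FPKM in every sample.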
